A study of Mus musculus with 12 samples.

Results

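Colorectal tissue of mice given azoxymethane and dextran sulfate sodium (AOM/DSS) was compared with that of untreated mice by RNA sequencing, and neither group swam. The comparison rested on 6 of the 12 libraries of the series, 3 of the Model group and 3 of the Ctrl group, and on all 15484 genes that passed a filter on low counts out of 18514 in the table. All animals were male C57BL/6 mice, bought at 4 weeks of age. Model mice received a single injection of AOM at 10 mg/kg into the abdominal cavity and then 3 cycles of drinking water with 2% DSS, each of 7 days, followed by sterile water, while Ctrl mice drank ordinary water throughout. Both groups were put into shallow warm water as a sham for the swimming of the other groups, whose 6 libraries served here only to estimate the spread between replicates. The labels call the tissue colorectal in both groups, and neither they nor the methods state which stretch of the bowel or how much tumour entered a library. Nothing states that each library came from a separate mouse, so p-values measure the spread between these samples.

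AOM is an alkylating agent that becomes mutagenic after its activation in liver and colon, and DSS strips the colonic epithelium and brings bacteria into contact with the mucosa. Repeated rounds of injury and regrowth in mice exposed to both lead to inflamed mucosa and to tumours, mostly of the distal colon, that usually carry an active Wnt pathway. A piece of such tissue holds absorptive, goblet, hormone-producing and tuft cells of the epithelium beside fibroblasts, vessels, muscle, nerves and immune cells. In such bulk samples, fewer cells of a type and less RNA per cell cannot be told apart.

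Total counts lay between 19230024 and 19451055 in Ctrl and between 17256953 and 18398965 in Model, so that 3 counts, the limit that a count of 0 allows, were at most 0.174 CPM, the count scaled to library size. Over all genes tested, Pearson's r of log2 CPM was between 0.9855 and 0.988 for pairs of Ctrl libraries and between 0.9227 and 0.9641 for pairs of Model libraries. Genes typical of tissues other than colonic mucosa were high in some Model libraries and not in others, and the source of their RNA was not tested. Of 26 tested genes of pancreatic acinar cells 21 were higher in Model, and their list's sum was 61216, 547 and 29474 CPM in Model 1 to 3 against 610 to 815 CPM in Ctrl, and without Model 2, 33 members were higher, since more of them then pass the filter. The pancreatic lipase gene Pnlip stood at 4.58 to 5.17 CPM in Ctrl, and at 7142, 8.61 and 3092 CPM in Model 1 to 3. Genes of squamous epithelium, which lines the anal canal, were higher for 28 of 44 members, with sums of 2981, 5608 and 1759 CPM in Model 1 to 3 and 1996 to 3137 CPM in Ctrl, and no member was past the cutoffs without Model 2, Ctrl 2 or Ctrl 3, 1 without Ctrl 1 and 15 without Model 1. Krt5 and Krt14, the keratins of basal squamous cells, reached 168 and 139 CPM in Model 1 and 462 and 343 CPM in Model 2, while both lay at 1.15 CPM in Model 3 and at no more than 1.99 CPM in Ctrl. The skeletal muscle list summed to 286, 624 and 56.6 CPM in Model 1 to 3 and to 71.0 to 125 CPM in Ctrl, and the adipocyte list to 411, 428 and 1070 CPM against 424 to 554 CPM.

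The Model libraries also differed in genes that mark the position along the colon. The homeobox gene Hoxb6 was at 37.5, 40.0 and 36.4 CPM in Ctrl 1 to 3 and at 1.39, 3.81 and 58.8 CPM in Model 1 to 3. Hoxb8 lay at 20.5 to 23.9 CPM in Ctrl, at 1.34 and 1.04 CPM in Model 1 and Model 2 and at 23.8 CPM in Model 3. Hoxb13, whose expression marks the distal end of the gut, went the other way, with 170 and 168 CPM in Model 1 and Model 2, 7.58 CPM in Model 3 and 81.8 to 116 CPM in Ctrl. For the list of proximal position genes the median difference from the Ctrl mean was -1.08, -0.54 and 0.09 on the log2 scale in Model 1, 2 and 3, and for the distal list it was 0.58, 0.30 and -0.49. None of these 3 homeobox genes passed the test between the groups. The part of acinar, squamous, muscle, fat and position genes in the results that follow was not tested, and each result is therefore given by library.

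Between Model and Ctrl, 1150 genes (7.43% of those tested) passed the cutoffs of an adjusted p under 0.05 in edgeR's quasi-likelihood test and a fold change over 2 or under 0.5. Of these, 961 (6.21%) were higher and 189 (1.22%) lower in Model, and in 987 of them no Model library overlapped a Ctrl library, a pattern that 44.2% of all genes tested showed. A gene was said to hold in all 3 Model libraries when it passed the cutoffs, its groups did not overlap and every Model library lay more than 2-fold from the Ctrl mean. By this rule 493 genes held (3.18% of those tested), 408 upward (2.63%) and 85 downward (0.549%). Counts of list members that follow are to be read beside these shares, 6.21% higher and 1.22% lower for the cutoffs. Among genes that rose, 409 lay over 2-fold above the Ctrl mean in all 3 Model libraries (2.92% of all genes tested did, called or not) and 300 only in Model 1 and 2, a set that included 21 of the squamous list. A further 82 rose over 2-fold only in Model 1 and 3, of which 16 were acinar genes, and 93 only in Model 2 and 3. Among genes that fell, 89 lay below by over 2-fold in all 3 libraries (0.620% of all genes tested did) and 72 only in Model 1 and 2. The calls depended on the libraries: without Ctrl 2 the cutoffs were passed by 718 genes and without Model 3 by 1679, and 260 of the 408 and 62 of the 85 genes that held passed in each of the 6 fits that left out 1 library.

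**Figure D1:**
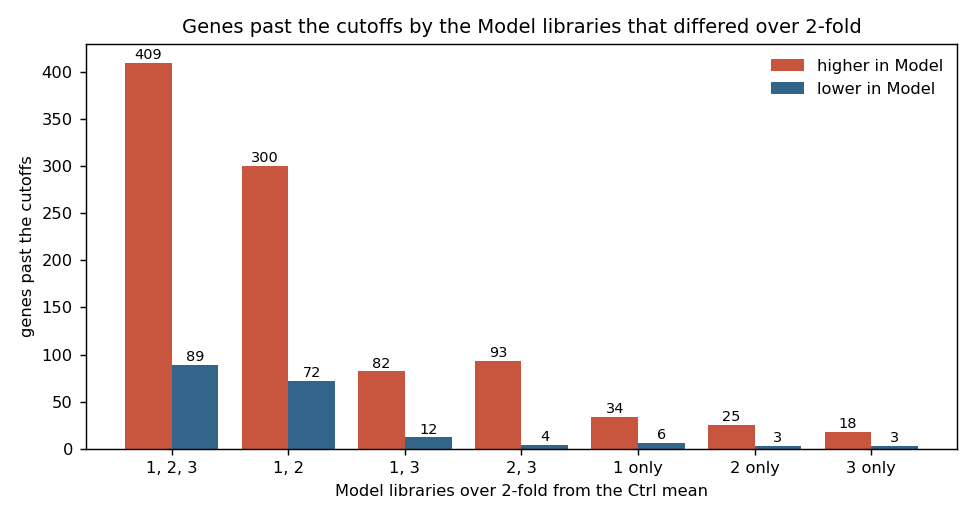
Number of genes past the cutoffs (vertical axis) by the Model libraries in which they differed over 2-fold from the Ctrl mean (horizontal axis), as bars for genes higher and lower in Model. The bars for all 3 libraries, 409 higher and 89 lower, are the tallest of each direction, and those for Model 1 and 2 come next with 300 and 72.

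**Figure D2:**
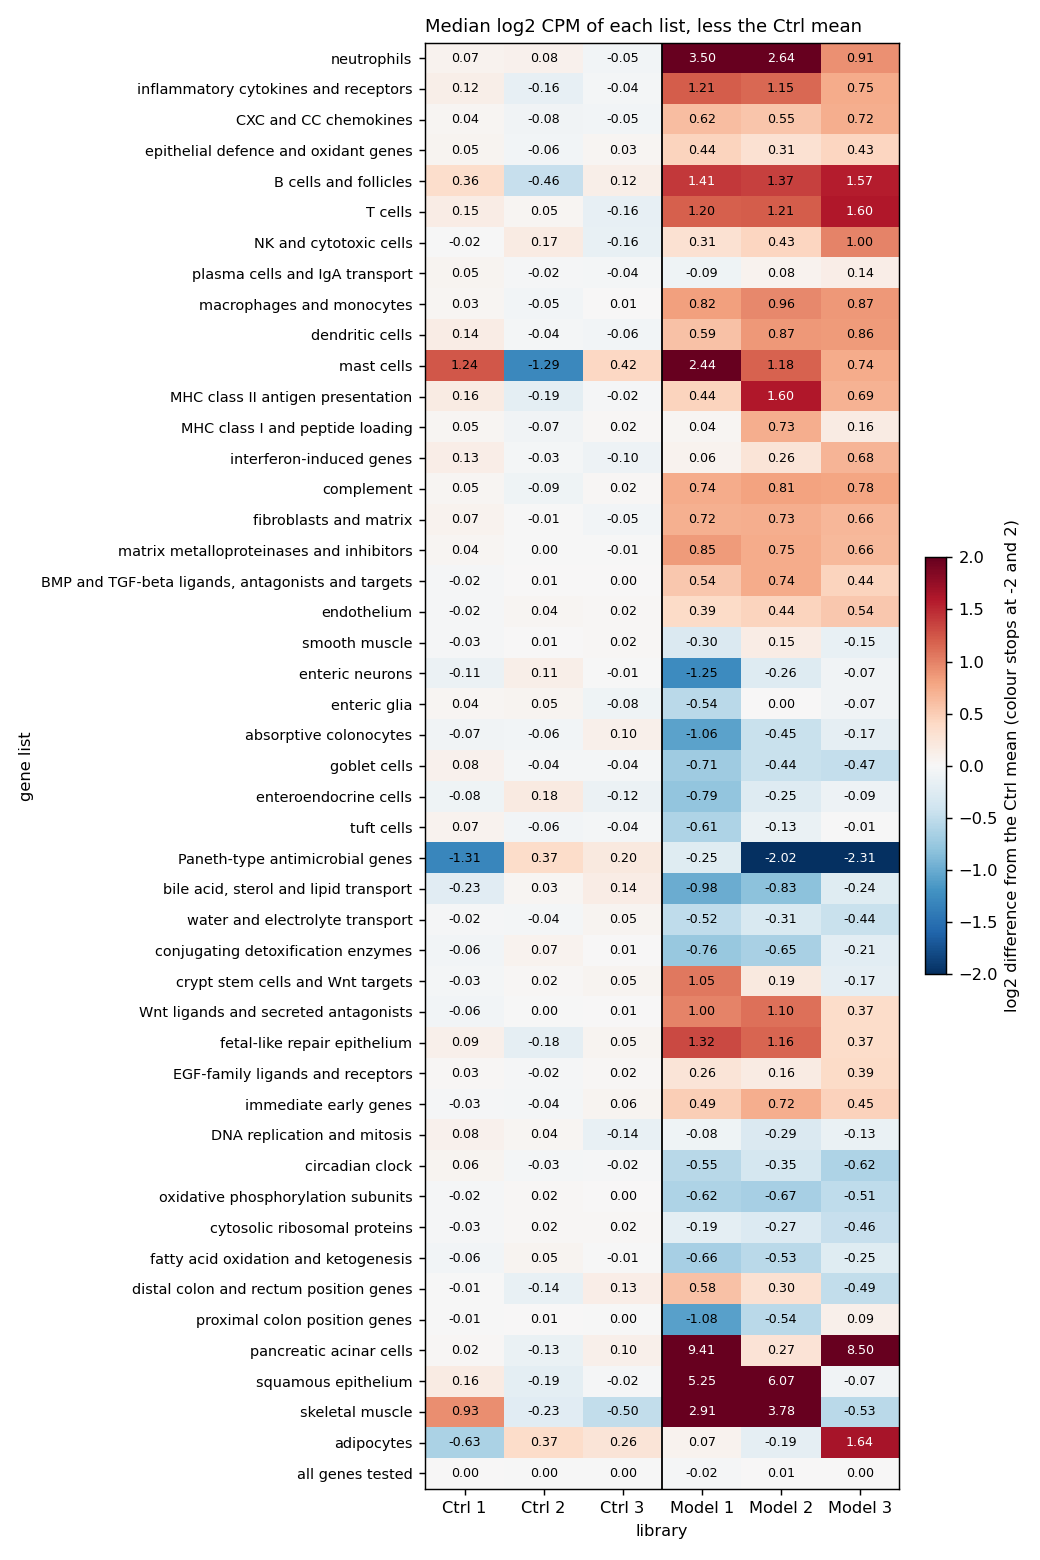
Median over the tested members of each gene list of log2 CPM less the Ctrl mean, with 1 row per list and 1 column per library, printed in each cell and coloured from blue (lower) to red (higher). B cell and T cell lists lay between 1.2 and 1.60 in the 3 Model libraries, the neutrophil list was at 3.50 in Model 1 and 0.91 in Model 3, and the row of all genes is near 0.

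Several genes of inflammation were among the largest increases that held. By the rule for naming genes, which leaves out the acinar, islet and squamous lists (some of whose members that held rose more) and unnamed gene models, the 15 largest increases with at least 5 CPM in Model were Krt31, Prss22, Cxcl5, Prom2, Khdc1a, S100a8, S100a9, Glycam1, Il1b, Stra6, Spp1, Nos2, Mmp10, Tnf and Slpi. Il1b, the gene of the cytokine interleukin-1 beta (chr2:129364569-129371164 in GRCm38.p6), was at 1.38, 0.818 and 0.935 CPM in Ctrl 1 to 3 and at 22.4, 24.7 and 6.37 CPM in Model 1 to 3. All 3 Model values lay above all Ctrl values, with Model 3 the lowest of them, and the log2 fold change was 4.09 (SE 0.55, adjusted p = 0.000737). Nos2, the inducible nitric oxide synthase (chr11:78920787-78960226), rose from 4.19, 3.54 and 5.06 CPM to 65.9, 97.7 and 21.1 CPM. Its log2 fold change was 3.85 (SE 0.56, adjusted p = 0.00101), again with the smallest increase in Model 3. Tnf, the gene of tumour necrosis factor, went from 0.718, 0.654 and 0.44 CPM to 8.52, 7.03 and 2.70 CPM, a log2 fold change of 3.32 (SE 0.48, adjusted p = 0.00101). Slpi, a secreted inhibitor of neutrophil proteases, was at 7.56, 5.07 and 4.78 CPM in Ctrl and at 77.7, 59.2 and 36.3 CPM in Model (3.31, SE 0.51, adjusted p = 0.00132). The vitamin A transporter gene Stra6 rose most in Model 1 (78.3 CPM) and least in Model 3 (4.94 CPM), from 1.42 to 3.92 CPM in Ctrl.

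Part of this list was carried by single libraries or by very low counts in Ctrl. Krt31, a hair keratin, had 0 counts in the Ctrl libraries and 160, 123 and 2 counts in Model 1 to 3, at least 95.3-fold higher against 3 counts over the group. It passed the cutoffs in none of the fits without a Ctrl library and without Model 1 or 2 (adjusted p 0.0578 to 0.0799). For Prss22, a serine protease, 2 counts in Ctrl stood against 661 in Model, a ratio of 331 with a 95% counting interval of 91.4 to 2740. Glycam1, a ligand of the lymphocyte homing receptor made by high endothelial venules, varied within Model from 0.872 CPM in Model 2 to 14.5 CPM in Model 1, against 0.0545 to 0.55 CPM in Ctrl, and it was past the cutoffs neither without Ctrl 1 or 2 nor without Model 1 (adjusted p 0.0525 to 0.0783). Spp1, the gene of osteopontin, was at 41.5 CPM in Model 1 but at 2.40 and 5.97 CPM in Model 2 and 3, with 0.662 to 1.76 CPM in Ctrl, and lost its call without Ctrl 1, Ctrl 2 or Model 1 (adjusted p 0.0573 to 0.0587). Khdc1a and Prom2, the latter a membrane protein of epithelial protrusions, rose from at most 0.33 CPM to between 1.03 and 23.9 CPM and between 1.43 and 9.75 CPM.

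The largest decreases that held, by the same rule, included AY761184, Apoa4, Slc26a1, Apoa1, Mptx2, Fabp6, Sis, Defa21, Npc1l1, Muc16, Pla2g4c, Olfm4, Cps1 and Reg4. Slc26a1, a sulfate and anion transporter (chr5:108669878-108678380), was at 8.33, 8.50 and 7.04 CPM in Ctrl and at 0.107, 0.109 and 0.459 CPM in Model, with a log2 fold change of -5.12 (SE 0.50, adjusted p = 0.000316). Its Ctrl libraries were close together, and every Model library was far below them. Muc16, a membrane mucin, fell from 38.0, 25 and 21.7 CPM to 1.66, 1.36 and 4.02 CPM (-3.59, SE 0.53, adjusted p = 0.00119). Cps1, the first enzyme of the urea cycle, fell from 45.3, 58.9 and 74.2 CPM to 8.20, 7.90 and 1.21 CPM (-3.36, SE 0.54, adjusted p = 0.0017). Pla2g4c, a cytosolic phospholipase A2, was at 1319, 479 and 776 CPM in Ctrl and at 15.7, 138 and 77.5 CPM in Model (-3.47, SE 0.75, adjusted p = 0.00608). Reg4 (chr3:98222138-98236748), a lectin of secretory crypt cells, was at 2051, 1513 and 1634 CPM in Ctrl and at 317, 267 and 72.5 CPM in Model (-2.98, SE 0.45, adjusted p = 0.00126).

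For several of these decreases, among them genes of lipid transport and digestion, the Ctrl libraries themselves were spread widely. The apolipoprotein gene Apoa1 was at 3.64, 25.8 and 67.6 CPM in Ctrl 1 to 3 and at 0.536, 1.36 and 1.03 CPM in Model. Fabp6, the bile acid binding protein of the ileum, was at 12, 62.2 and 71.1 CPM in Ctrl and at 1.5, 2.23 and 1.89 CPM in Model. Sis, the sucrase-isomaltase of the brush border, showed 9.66, 49.4 and 52.8 CPM against 0.214, 0.327 and 5.74 CPM. In each of them Ctrl 1 was the lowest Ctrl library, still above every Model library, and the log2 fold changes were -5.04 (SE 0.98, adjusted p = 0.00388), -4.69 (SE 0.78, adjusted p = 0.00189) and -4.17 (SE 0.95, adjusted p = 0.0078). Apoa4 rested on 2, 21 and 267 counts in Ctrl and on 2 counts in Model in all, a ratio of 145 with a 95% counting interval of 39.7 to 1200, and it was not past the cutoffs without Ctrl 3 or without Model 2 (adjusted p = 0.0891 and 0.0578). The defensin genes varied in the same manner: AY761184 had 11, 212 and 119 counts in Ctrl and 1 count in Model, a ratio of 341 with an interval of 60.8 to 13500, and Defa21 had 5.08, 63.1 and 25.8 CPM in Ctrl and 4.99, 1.04 and 0.0574 CPM in Model. Defensin genes are near-identical copies, so the division of reads among them is uncertain, and Defa21 was past the cutoffs neither without Ctrl 2 nor without Model 2 (adjusted p = 0.091 and 0.0708). In the list of bile acid, sterol and lipid transport 7 of 28 members fell and 1 rose, 6 of the 7 held, and the median log2 fold change was -0.57 (0.0055 over all genes tested). Without Ctrl 3, 4 members fell, and without Model 3, 13 did. Abca1, which exports cholesterol from cells, was the member that rose, from 32.5 to 37.3 CPM to 67.4 to 91.8 CPM (1.19, SE 0.13, adjusted p = 0.000407).

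**Figure D3:**
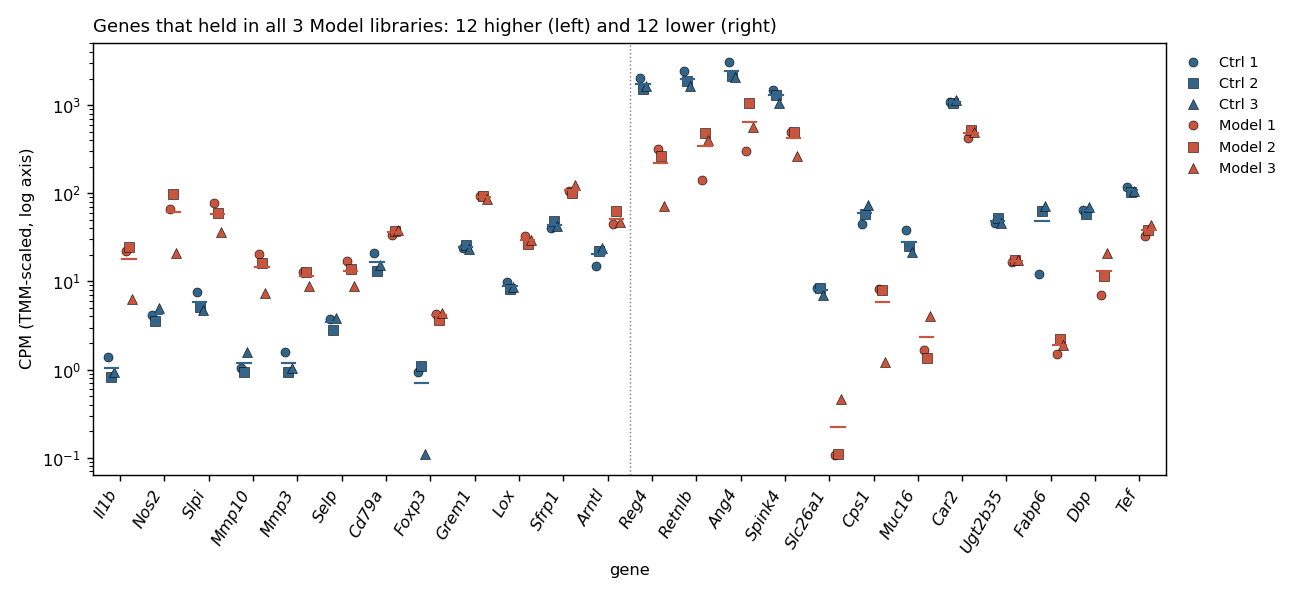
CPM on a log axis (vertical) of 24 genes that held in all 3 Model libraries (horizontal), 12 higher on the left and 12 lower on the right; blue points are the Ctrl and red points the Model libraries, with circles, squares and triangles for replicates 1, 2 and 3 and a line at each group's mean. No gene shows an overlap of the groups, and Grem1 and Ugt2b35 show the narrowest spread, with 87.0 to 93.9 and 16.7 to 17.5 CPM in Model.

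Genes of neutrophils, the granulocytes first drawn to injured mucosa, rose together and unevenly. Of 25 tested members 18 rose (6.21% of all genes tested did), 10 of them held and none fell, and the median log2 fold change was 3.87. Members near 0 in Ctrl, such as S100a8 and Cxcr2, pass the filter on low counts only through groups where they are high. The list has 32 members, and those that failed the filter are left out, so these counts and the median lean upward. By library the median difference from the Ctrl mean was 3.50, 2.64 and 0.91 in Model 1, 2 and 3. S100a9, a subunit of the neutrophil protein calprotectin (chr3:90692630-90695721), was at 0.221, 0.382 and 0.66 CPM in Ctrl and at 41.1, 20.6 and 2.87 CPM in Model (5.65, SE 1.37, adjusted p = 0.0107). Its partner S100a8 ran from 0.055 to 0.273 CPM in Ctrl and was at 15.1, 8.17 and 1.38 CPM in Model, with an adjusted p of 0.0143 that rose to 0.0558 and 0.0581 without Ctrl 1 and Ctrl 3. Csf3r, the receptor of the growth factor for granulocytes, was at 2.93, 2.45 and 2.80 CPM in Ctrl and at 15.4, 11.1 and 7.52 CPM in Model (2.05, SE 0.32, adjusted p = 0.00147). Cxcr2, the receptor through which neutrophils follow chemokines, rose from 0.11 to 0.164 CPM to 4.34, 2.34 and 1.66 CPM (4.37, SE 1.10, adjusted p = 0.0122). In each of these genes the order was Model 1, Model 2 and Model 3, and no Model library overlapped Ctrl. Slfn4 and Ltf were the most abundant members by FPKM, and they differed in evenness. Slfn4, a Schlafen gene of myeloid cells, was at 226, 279 and 280 CPM in Model against 49.7 to 64.2 CPM (2.20, SE 0.30, adjusted p = 0.000798). Ltf, the gene of lactoferrin, stood at 192 and 329 CPM in Model 1 and 2 and at 0.976 CPM in Model 3, inside the Ctrl range of 0.773 to 1.31 CPM. As for Krt5 and Krt14, Model 2 was the highest library for Ltf and Model 3 was near Ctrl. The cells that express Slfn4 and Ltf cannot be told from bulk tissue. Without Ctrl 3, 11 members of the list rose.

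Chemokines and cytokines that recruit such cells were higher as well. In the chemokine list 9 of 31 members rose and 2 fell, with a median of 0.76, where 6.21% of all genes tested rose and 1.22% fell. In the list of inflammatory cytokines and their receptors 16 of 35 rose and none fell, with a median of 1.17. Of that list's 46 members 35 passed the filter, which members near 0 in Ctrl pass only through groups where they are high. The neutrophil attractant Cxcl5 (chr5:90759298-90761625) was at 0.276, 0.327 and 0.22 CPM in Ctrl and at 55.5, 35.1 and 2.98 CPM in Model, and its log2 fold change was 6.79 (SE 1.2, adjusted p = 0.00246). Cxcl1, which acts on the same receptor, was at 0.166, 0.0545 and 0.33 CPM in Ctrl and at 9.22, 3.60 and 1.26 CPM in Model (4.63, SE 1.09, adjusted p = 0.00917). Both were thus highest in Model 1 and lowest, though above Ctrl, in Model 3. The monocyte attractant Ccl2 showed another order, 4.61, 6.65 and 2.76 CPM in Model against 0.763 to 1.60 CPM (2.15, SE 0.48, adjusted p = 0.00692), as did Cxcl10, a chemokine induced by interferon, at 3.97, 9.59 and 6.03 CPM against 1.53 to 2.36 CPM (1.82, SE 0.35, adjusted p = 0.00369). Cxcl14, a chemokine of resting epithelium, fell from 75.8, 51.1 and 64.3 CPM to 35.1, 35.5 and 23.5 CPM (-1.02, SE 0.20, adjusted p = 0.00415), at a fold change under the cutoff without Ctrl 1, Ctrl 3 or Model 3. Ccl25, which draws lymphocytes to the small intestine, fell from 4.91, 12.4 and 14.5 CPM to 1.98, 3.54 and 4.30 CPM (-1.70, SE 0.45, adjusted p = 0.0158), and was past the cutoffs neither without Ctrl 2 nor without Ctrl 3. Of the cytokine list, 9 of the 16 genes held, and the count that rose was 9 without Ctrl 2 and 10 without Ctrl 3. Its most abundant members by FPKM did not pass, with Tnfrsf1a, a receptor of tumour necrosis factor, at 88.8 to 103 CPM in Ctrl and 96.4 to 118 CPM in Model and Il18 at 26.9 to 34.0 CPM and 26.7 to 69.2 CPM.

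The promoter of Cxcl1 holds a match to the NF-kB motif, 71 bases before the start of transcription. The 150 bases before the start (RefSeq, GRCm38.p6, chr5:90891095-90891244, + strand) are shown because this gene is among the best known targets of that factor, with the match in capitals.
Cxcl1: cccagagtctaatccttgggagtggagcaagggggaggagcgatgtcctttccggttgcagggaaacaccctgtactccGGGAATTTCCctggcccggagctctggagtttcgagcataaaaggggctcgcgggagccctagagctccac
Of 14999 promoters of the genes tested (250 bases before to 50 bases after the start, both strands searched, 11771 of the 15484 genes matched by symbol), 0.48% hold this motif, and so do 0.593% of the 337 promoters of genes that held upward. A match describes the sequence and does not show that the factor bound there.

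Lymphocyte genes rose to a similar extent in all 3 Model libraries. In the B cell and follicle list 16 of 22 tested members rose, 15 of them held, and the median log2 fold change was 1.45. All 22 were higher with groups that did not overlap, where 21.0% of all genes tested were. The medians by library were 1.41, 1.37 and 1.57 in Model 1, 2 and 3, and 0.36, -0.46 and 0.12 in Ctrl 1, 2 and 3. Cd79a, a chain of the B cell receptor, was at 21.3, 13.1 and 15.4 CPM in Ctrl and at 33.7, 37.2 and 37.8 CPM in Model (1.12, SE 0.26, adjusted p = 0.00893). Tnfrsf13c, the receptor of a survival factor of mature B cells, was at 2.26, 1.25 and 2.14 CPM in Ctrl and at 7.40, 6.59 and 7.92 CPM in Model (1.95, SE 0.34, adjusted p = 0.00245). In these genes Ctrl 2 was the lowest library and the Model libraries were close to each other. Without Ctrl 2, 4 members rose and Cd79a was just under 2-fold higher (adjusted p = 0.0408), and without Ctrl 3, 8 members rose. Genes of plasma cells, the antibody-secreting descendants of B cells, did not follow. None of 17 members passed the cutoffs, the median was 0.11, and Jchain, the joining chain of secreted IgA, was at 1164, 1255 and 772 CPM in Ctrl and at 873, 1168 and 1413 CPM in Model.

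In the T cell list 20 of 28 members rose (6.21% of all genes tested did), 16 of them held (2.63%) and none fell. The median log2 fold change was 1.4, with medians by library of 1.2, 1.21 and 1.60. Ctla4, an inhibitory receptor of regulatory and activated T cells, was at 1.05, 1.14 and 0.66 CPM in Ctrl and at 5.20, 3.87 and 4.53 CPM in Model (2.25, SE 0.38, adjusted p = 0.00213). Foxp3, the transcription factor of regulatory T cells, was at 0.938, 1.09 and 0.11 CPM in Ctrl and at 4.29, 3.65 and 4.42 CPM in Model (2.52, SE 0.63, adjusted p = 0.0123). Cd247, a signalling chain of the T cell receptor, rose from 1.10, 0.981 and 1.48 CPM to 5.04, 3.65 and 6.20 CPM (2.05, SE 0.43, adjusted p = 0.00519). The groups were apart in all 3 genes, and the Model libraries again lay close together. Cd3e and Cd3d, chains found in every T cell, rose by log2 fold changes of 1.13 and 1.11 (adjusted p = 0.0412 and 0.032), and leaving out single libraries took these calls away, for Cd3d in each of the 6 fits (adjusted p 0.051 to 0.105). Il17a, the cytokine of type 17 T cells, held on few counts, 0.0545 to 0.166 CPM in Ctrl and 1.5, 0.599 and 0.287 CPM in Model, and lost its call in 5 of the 6 fits. Over the list, 10 to 12 members rose in the fits without a Ctrl library, and 12 without Model 3. Of 13 markers of natural killer and cytotoxic cells 2 rose, with a median of 0.76 (0.31, 0.43 and 1.00 by library), and 1 to 4 rose in the fits without a library: Il2rb, a receptor chain for interleukins 2 and 15, rose from 3.22 to 4.4 CPM to 10.7 to 14.3 CPM (1.60, SE 0.35, adjusted p = 0.00692), whereas the granzyme gene Gzmb was at 3.46 to 4.58 CPM and 3.27 to 5.05 CPM.

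In the endothelium list 5 of 28 members rose, all of them adhesion molecules for leukocytes. Icam2, which also has such a role, did not pass, nor did the list member Ackr1. Their log2 fold changes were 0.22 and 0.16 (adjusted p = 0.563 and 0.61, both genes chosen after their values were seen). Selp, the gene of P-selectin, was at 3.75, 2.78 and 3.85 CPM in Ctrl and at 16.8, 13.7 and 8.78 CPM in Model (1.92, SE 0.27, adjusted p = 0.000973). Vcam1 and Icam1, adhesion molecules for leukocyte integrins, rose from 14.1 to 18.0 CPM to 32.7 to 41.7 CPM (1.31, SE 0.20, adjusted p = 0.0013) and from 11.4 to 15.5 CPM to 27.4 to 36.8 CPM (1.22, SE 0.17, adjusted p = 0.000972). With Sele, at 0 to 0.331 CPM in Ctrl and 0.976 to 3.16 CPM in Model, these were the 4 members that held, and all 4 passed in each of the 6 fits that left out 1 library. Madcam1, the address molecule of gut venules, rose from 3.33 to 3.70 CPM to 6.26 to 8.36 CPM (1.06, SE 0.26, adjusted p = 0.0101), at under 2-fold without Model 1. Pecam1 and Cdh5, present on all endothelium, showed log2 fold changes of 0.53 and 0.55 (adjusted p = 0.00324 and 0.0101), and the list's median was 0.45.

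Macrophage genes were higher with an even spread over the Model libraries. Of 31 members 12 rose (6.21% of all genes tested did), 1 fell (1.22%) and 7 held. The median was 0.92, with 0.82, 0.96 and 0.87 by library. Lyz2, the lysozyme of myeloid cells, was at 143, 167 and 172 CPM in Ctrl and at 392, 419 and 422 CPM in Model (1.35, SE 0.12, adjusted p = 0.000285). Gpnmb, a glycoprotein of lipid-handling macrophages, rose from 20.4, 17.7 and 19.4 CPM to 47.4, 89.4 and 81.2 CPM (1.92, SE 0.24, adjusted p = 0.000607). Fcgr1, the high-affinity antibody receptor, was at 1.55, 2.45 and 1.70 CPM in Ctrl and at 6.11, 6.27 and 6.08 CPM in Model (1.69, SE 0.31, adjusted p = 0.00282). Ccr2, by which monocytes enter tissue, rose by 1.41 (SE 0.26, adjusted p = 0.00319) and Cd68, a marker of all macrophages, by 1.21 (SE 0.14, adjusted p = 0.000485). Csf1r and Adgre1, which also mark all of them, were under 2-fold higher, with log2 fold changes of 0.57 and 0.51 (adjusted p = 0.00963 and 0.00846). Cd163, a scavenger receptor of resident macrophages, was the member that fell, from 9.11, 10.4 and 7.48 CPM to 2.09, 2.18 and 5.63 CPM (-1.45, SE 0.35, adjusted p = 0.011). Among 18 genes of dendritic cells 3 rose and held, Ccr7, Cd86 and Fscn1, with log2 fold changes of 2.05, 1.36 and 1.28. Of these only Cd86 (SE 0.19, adjusted p = 0.000964) passed in all 6 fits that left out 1 library. All 3 are tied to the mature state of these cells, but so are Cd80, Cd83, Ccl17 and Ccl22 (chosen after the values were seen), which did not pass. The list's median was 0.81, 7 of its 18 members were higher at an adjusted p under 0.05, and Ccr7 is in the T cell list too. Mast cell genes varied within Ctrl: Cpa3, the mast cell carboxypeptidase, was at 2.04, 0.109 and 1.10 CPM in Ctrl and at 7.56, 4.03 and 2.30 CPM in Model, and 4 of 11 members rose, but 1 did without Ctrl 2 and 2 without Model 1. Of the mucosal mast cell proteases, Mcpt1 was at 40.1, 5.29 and 22.7 CPM in Ctrl and at 58.0, 18.9 and 10.1 CPM in Model (adjusted p = 0.74).

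Genes of MHC class II antigen presentation rose in Model 2 above all. In the list of MHC class II, which shows peptides to helper T cells, 8 of 12 members rose and 4 held, and the median difference from the Ctrl mean was 0.44, 1.59 and 0.69 in Model 1, 2 and 3. Cd74, the invariant chain and the most abundant member by FPKM, was at 502, 413 and 426 CPM in Ctrl and at 584, 1476 and 699 CPM in Model (1.04, SE 0.30, adjusted p = 0.0228), and without Model 2 its log2 fold change was 0.54 (adjusted p = 0.066). Without Model 2 or Ctrl 3, 2 members rose, and without Ctrl 2, 1 member did. Nlrc5, the regulator of MHC class I, rose from 14.8, 12.5 and 11.5 CPM to 31.7, 61.5 and 39.5 CPM (1.77, SE 0.33, adjusted p = 0.00303), and in that list 3 of 17 members rose and 1 fell. Its other risers were H2-Q7 and H2-Q6, at log2 fold changes of 1.55 and 1.4 (adjusted p = 0.00359 and 0.00808), near-identical copies between which reads may be split. In the list of interferon-induced genes 7 of 39 rose, with a median of 0.36 and medians by library of 0.06, 0.26 and 0.68, and Ifit2 and Ifit1bl1 held. Ifit2, an antiviral protein, was at 23, 21.4 and 13.9 CPM in Ctrl and at 51.0, 50.5 and 51.9 CPM in Model (1.4, SE 0.27, adjusted p = 0.00367), an even rise, whereas the GTPase gene Tgtp1 was at 5.52, 13.7 and 4.30 CPM against 1.53 to 2.76 CPM and lost its call without Ctrl 2 or Model 2. Without Model 2, 3 members of that list rose, and without Ctrl 2, 4 did. Complement genes rose at close to 2-fold, with 5 of 22 past the cutoffs, none of which held. At an adjusted p under 0.05, 14 were higher (16.5% of all genes tested were) and none lower. C3, the central component, was at 332, 209 and 253 CPM in Ctrl and at 493, 595 and 683 CPM in Model (1.16, SE 0.25, adjusted p = 0.00663), and C4b and C1qb rose by 1.12 (adjusted p = 0.000422) and 1.03 (adjusted p = 0.000316).

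Matrix and fibroblast genes shifted by a like amount in every Model library, mostly by less than 2-fold. At an adjusted p under 0.05 and any fold change, 32 of 42 members were higher and none lower, where 16.5% of all genes tested were higher, and 7 passed the cutoffs and 3 held. The list's median log2 fold change was 0.76, with 0.72, 0.73 and 0.66 in Model 1, 2 and 3. Grem1, a secreted antagonist of bone morphogenetic proteins (chr2:113748675-113758648), was at 24.2, 26.2 and 23.2 CPM in Ctrl and at 93.9, 92.3 and 87.0 CPM in Model. The libraries of each group nearly coincided, and its log2 fold change of 1.89 (SE 0.11, adjusted p = 1.73e-05) had the smallest adjusted p of the genes named, shared with the glucuronosyltransferase gene Ugt2b35. Lox, which crosslinks collagen, was at 9.88, 8.23 and 8.63 CPM in Ctrl and at 32.3, 26.4 and 29.6 CPM in Model (1.72, SE 0.17, adjusted p = 0.000316). Col1a1, a chain of type I collagen, rose from 243, 206 and 208 CPM to 571, 445 and 407 CPM (1.12, SE 0.18, adjusted p = 0.00152), at a log2 fold change of 0.98 without Model 1. Dcn, the proteoglycan decorin, was at 239 to 266 CPM in Ctrl and at 414 to 451 CPM in Model (0.78, SE 0.08, adjusted p = 0.00038), and the fibroblast receptor Pdgfra at 61.8 to 75.7 CPM and 86.4 to 128 CPM (0.71, adjusted p = 0.00586). Among ligands and antagonists of the BMP and TGF-beta family 7 of 32 rose and 4 held, and all 4 passed in each fit that left out 1 library. Besides Grem1 these were Inhbb, an activin subunit, from 0.99 to 1.55 CPM to 6.08 to 9.10 CPM (2.52, SE 0.32, adjusted p = 0.000605), the BMP antagonist Chrdl2, from 2.07 to 2.21 CPM to 8.44 to 15.3 CPM (2.47, SE 0.33, adjusted p = 0.000737), and the ligand Bmp8b, from 1.38 to 1.59 CPM to 5.07 to 7.40 CPM (2.05, SE 0.39, adjusted p = 0.00349). The BMP target genes Id1 and Id3, the most abundant members by FPKM, were at 99.5 to 135 and 106 to 170 CPM and at 50.3 to 64.0 and 62.8 to 66.6 CPM in Ctrl and Model (adjusted p = 0.217 and 0.0929). Smooth muscle genes did not move with the matrix: 1 of 27 was past the cutoffs, the median was -0.07, and Myh11, the smooth muscle myosin, was at 2178 to 2253 CPM in Ctrl and 1546 to 2465 CPM in Model. No member of the lists of enteric neurons (24 tested) and glia (16 tested) passed, though the neuronal median was -1.25 in Model 1 against -0.26 and -0.07 in Model 2 and 3.

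Matrix metalloproteinases, enzymes that cut the matrix, were higher for 8 of 22 members of their list (6.21% of all genes tested were). Of these 5 held, and no member fell. Mmp10 was at 1.05, 0.927 and 1.59 CPM in Ctrl and at 20.3, 16.1 and 7.40 CPM in Model (3.61, SE 0.45, adjusted p = 0.000596). Mmp3 was at 1.60, 0.927 and 1.04 CPM in Ctrl and at 12.8, 12.7 and 8.95 CPM in Model (3.26, SE 0.44, adjusted p = 0.000806). Mmp13, a collagenase, was at 3.59, 5.07 and 3.46 CPM in Ctrl and at 16.8, 15.6 and 13.4 CPM in Model (1.92, SE 0.33, adjusted p = 0.00229). In all of these the 3 Model libraries lay above the Ctrl libraries, in the order Model 1, 2 and 3, and the inhibitor Timp1 followed with 5.04, 3.70 and 2.58 CPM against 0.99 to 1.55 CPM (1.66, SE 0.37, adjusted p = 0.00712). Mmp14 and Timp2, the most abundant members by FPKM, were under 2-fold higher, with log2 fold changes of 0.66 and 0.42 (adjusted p = 0.0133 and 0.00158). With single libraries left out, 4 or 5 members rose in the fits without a Ctrl library or Model 1, and Mmp10, Mmp3, Mmp13 and Timp1 passed in all 6.

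Mmp3, Mmp10 and Mmp13 belong to a gene cluster of chromosome 9, and the promoter of each holds the letters TGANTCA of the AP-1 motif, which factors of the Fos and Jun families bind. The 150 bases before each start are shown because these genes rose together (RefSeq, GRCm38.p6, + strand, chr9:7445672-7445821, chr9:7502192-7502341 and chr9:7272364-7272513 in this order). Capitals mark the match, whose first base is at position -46 in Mmp3, -63 in Mmp10 and -35 in Mmp13.
Mmp3: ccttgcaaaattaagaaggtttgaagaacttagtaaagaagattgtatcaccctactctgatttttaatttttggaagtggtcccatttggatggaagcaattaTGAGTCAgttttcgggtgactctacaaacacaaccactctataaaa
Mmp10: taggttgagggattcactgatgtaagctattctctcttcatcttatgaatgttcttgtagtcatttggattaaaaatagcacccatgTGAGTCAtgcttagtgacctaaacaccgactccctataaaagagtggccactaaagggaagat
Mmp13: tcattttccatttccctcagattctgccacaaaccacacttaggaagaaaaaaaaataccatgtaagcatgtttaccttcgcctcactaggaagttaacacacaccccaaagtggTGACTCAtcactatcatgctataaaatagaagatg
These letters occur in 5.99% of the 14999 promoters of genes tested, in 14.2% of the 337 promoters of genes that held upward and in 9.72% of the 72 promoters of genes that held downward, and the match in Mmp13 reads TGACTCA, the other strand of the TGAGTCA of the other two. The interferon-stimulated response element (ISRE) was in 3.15%, 7.42% and 2.78%, the CDX letters TTTATNG in 7.55%, 12.2% and 13.9%, the HNF4 letters CAAAGNCCA in 1.71%, 2.08% and 4.17%, and the ETS letters CCGGAAG in 14.6%, 3.56% and 1.39% of the same groups of promoters. No test was made of these shares, and no match says only that the letters are not in this window.

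Genes of epithelial defence and oxidant production changed in both directions. Some of them, such as S100a8 and S100a9, are neutrophil genes as well, and the cells in which they changed cannot be told from bulk tissue. In that list 11 of 27 members rose and 1 fell, 8 and 1 of which held. Beside S100a8, S100a9, Nos2 and Slpi, Ido1, which breaks down tryptophan, was at 1.27, 0.709 and 1.32 CPM in Ctrl and at 5.47, 14.8 and 6.95 CPM in Model (3.04, SE 0.42, adjusted p = 0.000853). Cldn1, a claudin of tight junctions, rose from 1.10 to 1.43 CPM to 10.7, 14.3 and 2.98 CPM (2.92, SE 0.71, adjusted p = 0.0105), while Cldn15, a claudin that forms sodium pores, fell from 254, 259 and 254 CPM to 90.1, 113 and 160 CPM (-1.08, SE 0.16, adjusted p = 0.00118, under 2-fold without Model 1). Steap4, a metalloreductase induced by inflammation, rose from 9.35 to 11.9 CPM to 71.7, 34.8 and 36.8 CPM (2.22, SE 0.34, adjusted p = 0.00128), and Tfrc, the transferrin receptor, fell from 362 to 423 CPM to 209, 150 and 167 CPM (-1.16, SE 0.14, adjusted p = 0.000523). Retnlb, a goblet cell protein that acts on bacteria, was at 2447, 1896 and 1655 CPM in Ctrl and at 140, 486 and 397 CPM in Model (-2.55, SE 0.50, adjusted p = 0.00388). Ang4, an antimicrobial ribonuclease, was at 3053, 2141 and 2091 CPM in Ctrl and at 298, 1062 and 567 CPM in Model (-1.92, SE 0.56, adjusted p = 0.023), and missed the cutoffs without Ctrl 1 or Model 1 (adjusted p = 0.0706 and 0.059). Itln1, a lectin for microbial sugars, fell from 146, 148 and 103 CPM to 58.4, 23.5 and 14.9 CPM (-2.03, SE 0.49, adjusted p = 0.0106). With Reg4 these were the 4 Paneth-type genes that held among 5 of 15 that fell, and Model 1 was lowest for Retnlb and Ang4 but highest for Itln1 and Reg4. Among the 2 members that rose, Mmp7, a protease and defining marker of Paneth cells, was at 2.10, 7.90 and 5.06 CPM in Ctrl and at 134, 24.9 and 3.44 CPM in Model (3.43, SE 0.98, adjusted p = 0.022), with Model 3 inside the Ctrl range, and it lost its call without Model 1 or any one of the Ctrl libraries (adjusted p 0.05 to 0.12). The other, Reg1, a regenerating protein also made by acinar cells, was at 669 and 313 CPM in Model 1 and 3, the libraries with acinar genes, and at 0.654 CPM in Model 2 and 0.497 to 0.715 CPM in Ctrl, and the lysozyme gene Lyz1 was at 475, 62.9 and 12.5 CPM in Model against 24.8, 261 and 90.6 CPM in Ctrl (adjusted p = 0.708).

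Goblet cell genes were lower, more often by less than 2-fold than by more. At an adjusted p under 0.05, 16 of 28 members were lower and none higher, where 16.2% of all genes tested were lower. The median log2 fold change was -0.52, with -0.71, -0.44 and -0.47 by library. Past the cutoffs were 3 members (1.22% of all genes tested fell), 5 without Model 2 or without Model 3, but 2 without Model 1, Ctrl 1 or Ctrl 3. Spink4, a protease inhibitor of goblet cells, held, with 1474, 1317 and 1069 CPM in Ctrl and 496, 493 and 267 CPM in Model (-1.62, SE 0.24, adjusted p = 0.00125). Spdef, a transcription factor of goblet cell maturation, fell from 169, 146 and 139 CPM to 49.5, 58.5 and 85.8 CPM (-1.23, SE 0.20, adjusted p = 0.00191). The main mucin Muc2 was in no way uniform, at 10899, 8734 and 9228 CPM in Ctrl and at 3836, 7920 and 12815 CPM in Model, so that Model 1 and 2 lay below and Model 3 above every Ctrl library (adjusted p = 0.605). Clca1, a mucus-processing protease and the member with the highest FPKM, fell from 21683, 15915 and 16103 CPM to 3248, 11863 and 5581 CPM (-1.38, SE 0.48, adjusted p = 0.0483), but was past the cutoffs in only 1 of the 6 fits that left out 1 library. Hormone genes of enteroendocrine cells gave 3 decreases among 28, Sct, Sst and Pcsk1, each lowest in Model 1 and highest in Model 3. The fit without Model 3 gave 7 decreases, and those without Model 1, Model 2, Ctrl 1 or Ctrl 2 gave 2 each. Sst, the gene of somatostatin, was at 39.8, 39.4 and 27.4 CPM in Ctrl and at 6.92, 11.4 and 20.1 CPM in Model (-1.47, SE 0.33, adjusted p = 0.00776), while Chga, which marks most of these cells, was at 94.7 to 132 CPM and at 44.9, 54.4 and 110 CPM (adjusted p = 0.093). Of 22 tuft cell genes 1 was past the cutoffs, Rgs13, and Dclk1 was at 31.0 to 35.6 CPM in Ctrl and 18.9 to 37.5 CPM in Model (adjusted p = 0.538).

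Genes of absorptive colonocytes were lowest in Model 1 and nearest to Ctrl in Model 3. Of 35 members 4 fell and 1 rose, and the medians by library were -1.06, -0.45 and -0.17. In the fit without Model 3, 15 members fell, but in that without Model 1, 3 did. Car1, a carbonic anhydrase and the most abundant member by FPKM after Lypd8, was at 6821, 6385 and 6775 CPM in Ctrl and at 410, 277 and 4731 CPM in Model, so that the groups did not overlap and yet the adjusted p was 0.0938. Slc37a2, a sugar phosphate transporter, held, from 164, 175 and 162 CPM to 19.3, 52.7 and 8.55 CPM (-2.64, SE 0.58, adjusted p = 0.00671), and Fabp2, which binds fatty acids, fell from 501, 494 and 553 CPM to 90.4, 130 and 265 CPM (-1.67, SE 0.32, adjusted p = 0.00351). Slc26a3, the chloride exchanger of the surface epithelium, was at 475 to 561 CPM in Ctrl and at 205, 564 and 246 CPM in Model (adjusted p = 0.162), and the water channel Aqp8 at 194 to 250 CPM and 222 to 499 CPM (adjusted p = 0.208). Among 38 genes of water and electrolyte transport 5 fell and 1 rose, 2 fell without Model 1, and Car2, the other abundant carbonic anhydrase, held with little spread. Its values were 1074, 1058 and 1148 CPM in Ctrl and 419, 517 and 498 CPM in Model (-1.19, SE 0.13, adjusted p = 0.00038). Slc4a4, which carries bicarbonate into the cell, fell from 181, 147 and 169 CPM to 51.6, 79.8 and 86.9 CPM (-1.18, SE 0.18, adjusted p = 0.00131, under 2-fold without Model 1). Of 50 conjugating enzymes 5 fell, 20 were lower at an adjusted p under 0.05 and 1 was higher, and the median was -0.50, but 18 fell without Model 3 and 2 without Model 1. The exception was Ugt2b35, which was even in every library, with 46.3, 52.8 and 45.5 CPM in Ctrl and 16.7, 17.5 and 17.3 CPM in Model (-1.49, SE 0.08, adjusted p = 1.73e-05).

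Wnt target genes, which mark crypt stem cells and tumours with an active pathway, were very unlike between the Model libraries. Of 34 members 10 rose and none fell, but only Lef1 held, and the medians by library were 1.05, 0.19 and -0.17 in Model 1, 2 and 3. Notum, a secreted enzyme that inactivates Wnt proteins (chr11:120653788-120661193), was at 0.552, 0.164 and 0.33 CPM in Ctrl and at 104, 9.21 and 0.631 CPM in Model (6.75, SE 1.51, adjusted p = 0.00738). Wif1, an inhibitor that binds Wnt proteins, was at 150, 17.2 and 3.44 CPM in Model against 2.36 to 3.82 CPM in Ctrl (4.22, SE 1.03, adjusted p = 0.011). The Wnt antagonist Apcdd1 was at 117, 14.8 and 6.95 CPM against 3.13 to 5.07 CPM (3.58, SE 0.87, adjusted p = 0.0105). Model 1 was far the highest library in each, and Model 3 was near or inside the Ctrl range. Prox1, a transcription factor seen in intestinal tumours and in lymphatic vessels, ran at 194, 22.8 and 12.1 CPM against 9.99 to 10.9 CPM (2.86, SE 0.80, adjusted p = 0.0195) and was not past the cutoffs without any one of the Ctrl libraries (adjusted p 0.063 to 0.0661) or without Model 1, where its log2 fold change was 0.75. The stem cell receptor Lgr5 was at 10.2 to 16.3 CPM in Ctrl and at 54.1, 10.8 and 5.05 CPM in Model (adjusted p = 0.389), and the feedback gene Axin2 at 47.1 to 53.1 CPM and at 156, 59.5 and 40.8 CPM (adjusted p = 0.13). Lef1, a transcription factor of the pathway, was at 0.654 to 1.10 CPM in Ctrl and at 15.2, 3.11 and 3.33 CPM in Model (3.06, SE 0.91, adjusted p = 0.0255), and missed the cutoffs without any Ctrl library or Model 1 (adjusted p 0.0666 to 0.102). The cells in which Lef1 rose cannot be told from bulk tissue, and Tcf7, another member that rose, is in the T cell list too. Without Model 1, or without any one of the Ctrl libraries, 4 members of the list rose. Among Wnt ligands and secreted antagonists 9 of 24 rose and 1 held, Sfrp1, an antagonist made by stromal cells, which was even at 105, 102 and 123 CPM in Model against 40.5 to 48.4 CPM in Ctrl (1.33, SE 0.12, adjusted p = 0.000314).

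Genes of the fetal-like state that regrowing epithelium takes on were higher for 15 of 28 members, of which 4 held, with medians of 1.32, 1.16 and 0.37 by library. Ly6a, the defining marker of this state, was at 158, 143 and 158 CPM in Ctrl and at 383, 383 and 233 CPM in Model (1.12, SE 0.20, adjusted p = 0.0027). Clu, the gene of clusterin and a marker of revival stem cells, was at 77.6, 55.5 and 62.6 CPM in Ctrl and at 340, 151 and 150 CPM in Model (1.71, SE 0.30, adjusted p = 0.00239). The growth factor Ereg rose from 6.29, 4.91 and 6.60 CPM to 14.9, 24.1 and 17.9 CPM (1.67, SE 0.21, adjusted p = 0.000596) and the urokinase receptor Plaur from 5.29 to 7.78 CPM to 14.3 to 16.5 CPM (1.28, SE 0.15, adjusted p = 0.000441). Clu, Ereg and Plaur passed the cutoffs in each of the 6 fits that left out 1 library, with groups well apart. Anxa1, another defining marker, is expressed by squamous epithelium as well, and it followed the squamous libraries, at 319, 516 and 129 CPM in Model against 102 to 123 CPM in Ctrl. Krt19 and Lgals3, the members most abundant by FPKM, were lower, with log2 fold changes of -0.60 and -0.68 (adjusted p = 0.00187 and 0.0075). Without Ctrl 2, 6 members of the list rose.

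**Figure D4:**
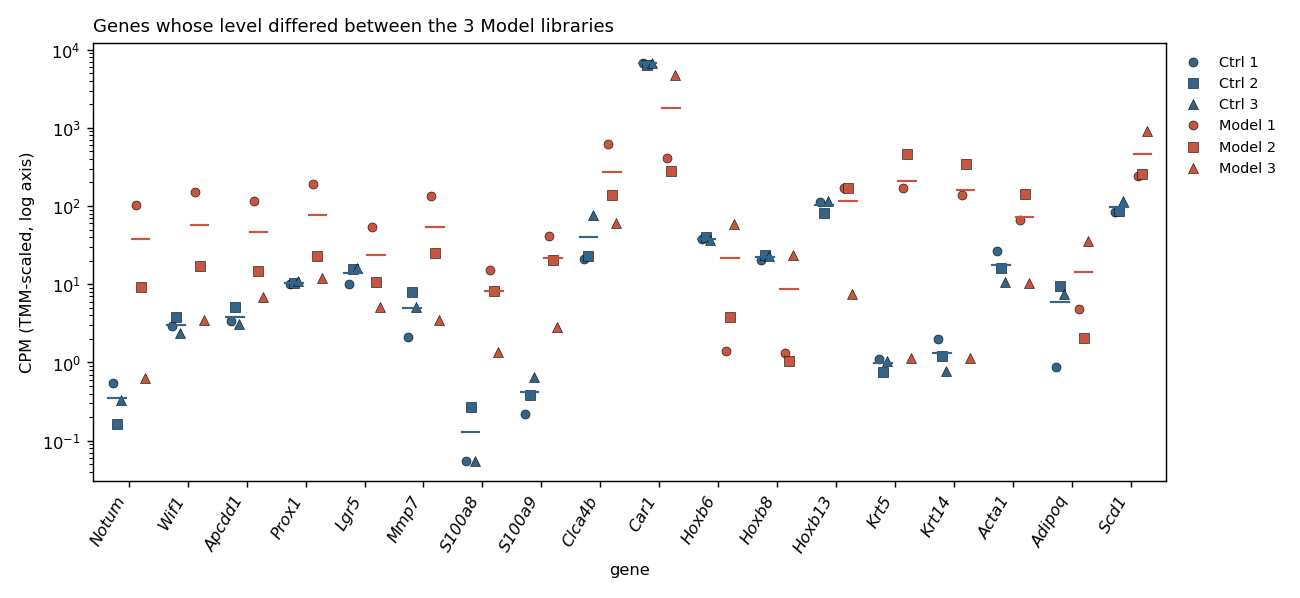
CPM on a log axis (vertical) of 18 genes (horizontal) whose level differed between the Model libraries, with blue points for Ctrl, red points for Model, circles, squares and triangles for replicates 1, 2 and 3 and a line at each group's mean. Notum spans 0.631 to 104 CPM within Model, Krt5 and Krt14 are near Ctrl in Model 3 only, and Hoxb6 and Hoxb8 are near Ctrl in Model 3 and far below it in Model 1 and 2.

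Genes of energy metabolism shifted down by less than 2-fold and with great evenness. All 74 tested nuclear genes for subunits of oxidative phosphorylation were lower at an adjusted p under 0.05, none by over 2-fold, and in all 74 every Model library lay below every Ctrl library, where 23.2% of all genes tested did. Their log2 fold changes lay between -0.77 and -0.27 with a median of -0.60, and the medians by library were -0.62, -0.67 and -0.51. Complex I gave a median of -0.56 over 35 genes, complex II -0.61 over 4, complex III -0.65 over 10, complex IV -0.62 over 10 and complex V -0.61 over 15. Summed over the 74 genes, the level was 19314, 19730 and 19699 CPM in Ctrl and 12493, 12348 and 13871 CPM in Model. Of 38 genes of fatty acid oxidation and ketone body formation 25 were lower and none higher at an adjusted p under 0.05. None of them passed the cutoffs in the main fit, while 4 did without Model 3. Their median was -0.44, and here Model 3 was nearer to Ctrl, at -0.25 against -0.66 and -0.53. Cytosolic ribosomal protein genes shifted less, and most in Model 3: 45 of 57 were lower at an adjusted p under 0.05, all 57 without overlap, the median was -0.30, and the medians by library were -0.19, -0.27 and -0.46. Such differences are relative to the scaling of the libraries. Proliferation genes did not rise. At an adjusted p under 0.05, 9 of 50 genes of DNA replication and mitosis were lower, near the 16.2% of all genes tested, and none was higher. None of the 50 passed the cutoffs, and their median was -0.16. Likewise none passed among 29 p53 targets and repair genes for alkylated bases (median 0.06), 29 genes of the unfolded protein response (-0.12) and 24 heat shock genes (-0.05).

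**Figure D5:**
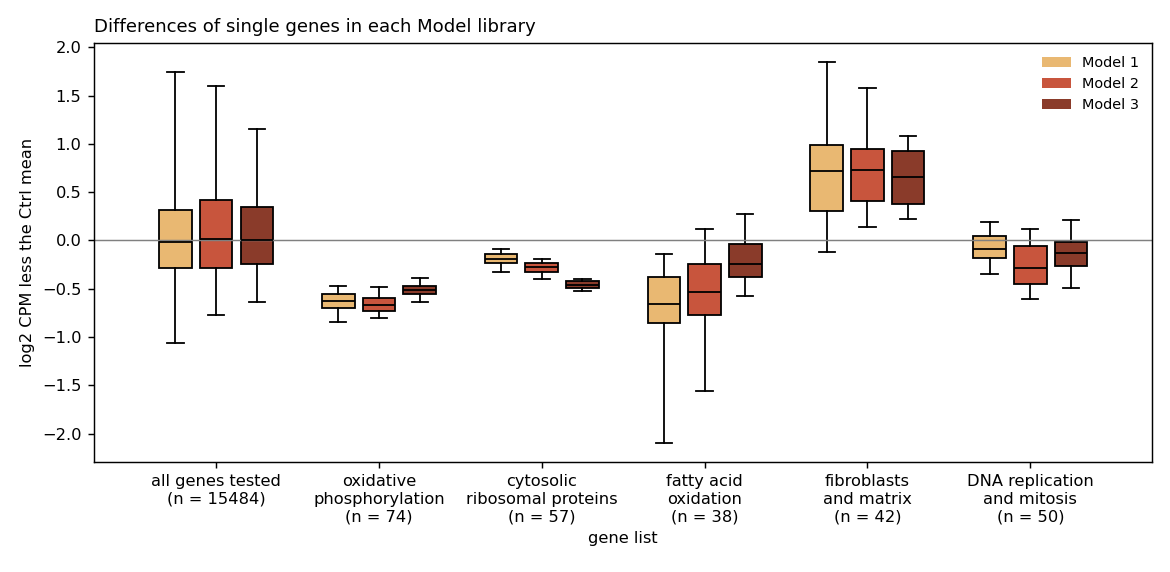
Log2 CPM of single genes less the Ctrl mean (vertical axis) in each Model library for all genes tested and 5 lists (horizontal axis), as boxes over the quartiles with a line at the median and whiskers from the 5th to the 95th percentile. Oxidative phosphorylation genes sit in narrow boxes with medians of -0.62, -0.67 and -0.51, fibroblast and matrix genes at 0.72, 0.73 and 0.66, and all genes near 0.

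Genes of the circadian clock were changed in every Model library. The core activator Arntl rose from 15, 22.2 and 24.0 CPM to 45.0, 62.2 and 46.8 CPM (1.33, SE 0.18, adjusted p = 0.000838). Genes that the activator switches on fell: Dbp from 64.0, 58.9 and 70.0 CPM to 6.97, 11.6 and 21.1 CPM (-2.28, SE 0.29, adjusted p = 0.000638), Ciart from 7.29, 7.20 and 8.69 CPM to 0.59, 0.926 and 2.18 CPM (-2.65, SE 0.36, adjusted p = 0.000796) and Tef from 116, 103 and 105 CPM to 32.7, 38.1 and 43.2 CPM (-1.51, SE 0.12, adjusted p = 0.000261). The repressor gene Nr1d1 fell from 130, 135 and 156 CPM to 44.2, 57.5 and 76.3 CPM (-1.25, SE 0.16, adjusted p = 0.000641). In each decrease Model 1 was the lowest and Model 3 the highest Model library, and no gene's groups overlapped. In all, 6 of 20 members fell and 1 rose, 3 and 1 of which held, and all 4 passed in each fit that left out 1 library. The hour at which each mouse was killed is not stated in the sources used here, and its part in this result was not tested.

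Ciart and Tef carry the letters CACGTG of the E-box through which clock activators act, and the 150 bases before their starts are shown because both genes fell while Arntl rose (RefSeq, GRCm38.p6, chr3:95882229-95882378 on the - strand and chr15:81802523-81802672 on the + strand). Capitals mark the matches, which begin at positions -116, -58 and -44 in Ciart and -127 in Tef.
Ciart: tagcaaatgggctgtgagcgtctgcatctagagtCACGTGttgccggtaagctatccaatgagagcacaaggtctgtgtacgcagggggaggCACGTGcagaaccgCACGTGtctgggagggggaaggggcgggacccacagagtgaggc
Tef: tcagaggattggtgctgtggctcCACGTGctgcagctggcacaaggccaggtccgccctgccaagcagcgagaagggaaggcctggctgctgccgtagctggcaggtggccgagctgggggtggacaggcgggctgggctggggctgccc
The letters occur in 9.07% of the promoters of all genes tested, in 3.86% of those of genes that held upward and in 6.94% of those of genes that held downward, shares that were not tested.

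Lipid mediator and synthesis genes changed one by one. Ptges, which makes prostaglandin E2, was at 8.39, 5.72 and 8.58 CPM in Ctrl and at 15.7, 22.7 and 18.5 CPM in Model (1.33, SE 0.18, adjusted p = 0.000863), and of the 25 genes of prostanoid synthesis, sensing and breakdown it held upward and Pla2g4c downward. Hpgd, which degrades prostaglandins, was at 195, 235 and 209 CPM in Ctrl and at 68.4, 89.8 and 167 CPM in Model, a log2 fold change of -0.98 (SE 0.25, adjusted p = 0.0137) just short of 2-fold. Scd1, the desaturase of fatty acid synthesis, was the 1 member of 36 to pass in its list, at 84.1, 86.6 and 117 CPM in Ctrl and 241, 256 and 905 CPM in Model (2.28, SE 0.51, adjusted p = 0.00699), highest in Model 3, where the adipocyte list was highest too. Cyp26b1, which clears retinoic acid, rose from 1.2 to 3.26 CPM to 4.99 to 11.6 CPM (1.82, SE 0.40, adjusted p = 0.00719). Immediate early genes, which respond to signals within minutes, rose for 6 of 27 members (6.21% of all genes tested rose). Egr1 was at 13.4, 19.5 and 24.7 CPM in Ctrl and 53.1, 66.4 and 40.6 CPM in Model (1.47, SE 0.25, adjusted p = 0.00214). Over the 59 lists, 296 of 1464 genes tested passed the cutoffs, 116 held upward and 22 downward, and 12 lists had no member past the cutoffs. Over all genes tested the shares were 7.43%, 2.63% and 0.549%, and the lists were chosen with earlier results of these data known.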

How the data were processed

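RNA of colorectal tissue was sequenced from 12 libraries in 4 groups of 3, of which the Model and Ctrl libraries were compared here. Reads were trimmed by the authors (Trimmomatic) and mapped by HISAT2 on the GRCm38.p6 genome, and the authors deposited raw counts per gene from HTSeq-count, with no normalization, beside FPKM values that the authors computed with Cufflinks, which correct for gene length and depth. The library kit keeps the strand of the RNA, and the strand setting of the counting is not given in the sources used here. CPM, counts scaled to library size, were computed from the deposited counts with TMM library sizes. Genes were kept by edgeR's filterByExpr with a minimum count of 10, and the 4 groups were fitted together with edgeR 4.0.16 (quasi-likelihood test, R 4.3.3), with Benjamini-Hochberg adjustment over the 15484 genes kept. A gene passed the cutoffs when its adjusted p was under 0.05 and its fold change exceeded 2 or was below 0.5. SE is an approximate standard error, the size of the log2 fold change divided by the square root of the F statistic of that test. Differences by library used log2 CPM with a prior count of 2. FPKM served only to rank members of a list by abundance and for limma 3.58.1 on log2(FPKM + pseudocount of 1 or 0.1), an alternative. DESeq2 1.42.0, other filters, a replicate block and leaving out each library were the other alternatives. The authors' own differential test used DESeq2. The steps were tested on simulated data.

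Named genes were the 15 largest increases and decreases among genes that held with at least 5 CPM in the higher group (leaving out the acinar, islet and squamous lists, unnamed gene models, pseudogenes and antigen receptor segments), up to 5 members a list and direction, the 2 most abundant members of each list with calls, and defining markers. The members, lists and tests were chosen with earlier results of these data known. Total counts per sample leave a counting error that intervals and limits cover alone, and an exact permutation test of 3 against 3 cannot give a two-sided p under 0.1, so none was used. Promoters came from RefSeq tables matched by symbol, without a genome sequence. Some genes that the rule names are not reported here.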

Additional observations from a re-analysis of the deposited data

How the results depend on the processing

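The cutoffs were passed by 1150 genes, and by 1156 with DESeq2's size factors, 1319 with DESeq2's own test, 1181 with no filter on low counts, 840 in a fit of the 6 Ctrl and Model libraries and 1113 without the acinar, islet and squamous lists. The count was 451 with limma on log2(FPKM + 1), 893 on log2(FPKM + 0.1), 426 with a pseudocount of 1 and no filter, and 5066 by the adjusted p alone. Leaving out 1 library gave 718 (without Ctrl 2) to 1679 (without Model 3) genes past the cutoffs and 386 (without Ctrl 2) to 1261 (without Model 3) that held, against 493. With Model 2 as the only Model library, assumed to vary like the other groups, 1291 genes passed (943 higher and 348 lower) and 1279 met the rule for genes that held, which then asks 1 library only. The cause of these differences was not tested, except that fewer Model libraries make that rule easier to meet. Of 186 named genes past the cutoffs, 87 passed under all 16 alternatives counted for single genes, 99 lost the call under at least 1, and 0 changed sign.

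With the replicate number as a block, 1109 genes passed the cutoffs and 478 held. Deviations of same-numbered Ctrl and Model libraries correlated by 0.0509, -0.125 and -0.0132, within the range of -0.143 to 0.166 of differently numbered ones. With 3 libraries a group, these values cannot decide whether the numbers pair the samples.

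At these depths genes under about 0.174 CPM in a library rest on 3 counts or fewer, and 3 libraries a group limit the precision of every fold change.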

Other observations

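A gene family outside the lists, chosen after its values were seen, was among the most abundant that held downward. Gsdmc4, a gasdermin of the gut epithelium whose family forms membrane pores (chr15:63891140-63912319 in GRCm38.p6), was at 4344, 3194 and 3479 CPM in Ctrl and at 675, 1113 and 787 CPM in Model (-2.10, SE 0.30, adjusted p = 0.000972 by edgeR). Its neighbours Gsdmc2 and Gsdmc3 went from 2471, 1773 and 1879 CPM to 252, 608 and 521 CPM (-2.15, SE 0.37, adjusted p = 0.00214) and from 480, 341 and 407 CPM to 54.4, 149 and 112 CPM (-1.96, SE 0.36, adjusted p = 0.00291). Model 1 was the lowest library in all 3, and no Model library overlapped Ctrl. The copies are close in sequence, so how reads divided among them is uncertain.

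Iron genes changed in both directions, with 4 of 19 members higher and 1 lower (6.21% and 1.22% of all genes tested were). Cp, the copper-containing ferroxidase ceruloplasmin, was even within groups, at 22.2, 22.8 and 22.8 CPM in Ctrl and 44.9, 46.9 and 46.8 CPM in Model (1.03, SE 0.17, adjusted p = 0.00169 by edgeR). Lcn2, which binds bacterial iron carriers, was at 2.98, 3.54 and 2.97 CPM in Ctrl and at 44.5, 20.6 and 4.82 CPM in Model (2.88, SE 0.69, adjusted p = 0.00982).

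Whether the Model effect differed in mice that swam was tested as an interaction. By edgeR, 0 genes passed at an adjusted p under 0.05, with a smallest adjusted p of 0.0547. At an unadjusted p under 0.05 there were 2947 genes, where a share of 0.05 of the 15484 tested is expected without any interaction. Of 186 named genes past the cutoffs, 164 had the same sign between the 2 groups that swam. These genes were chosen by their change between Model and Ctrl, and the share over all genes tested is not given here. With 3 libraries a group, these values cannot decide whether the effect was the same in swimming mice.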
